A study of Mus musculus with 12 samples.

Results

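The genes of oxidative phosphorylation were followed in RNA-seq libraries of mouse bone marrow-derived macrophages (BMDMs) that had been grown with olaparib, with MNA or with their solvent. Members were taken by symbol: the Nduf genes of complex I, Sdha to Sdhd of complex II, the Uqcr genes of complex III, Cox4 to Cox8 of complex IV, the Atp5 genes of complex V, and the mt-Nd, mt-Cytb, mt-Co and mt-Atp genes of mitochondrial DNA. Of the 35275 genes listed, 109 had such a symbol, of which 7 carried a pseudogene symbol and 10 had a mean under 10 counts per library. The remaining 92 were kept, 80 of them encoded in the nucleus and 12 in mitochondrial DNA. All 92 entered the test, which covered 12849 genes with enough counts.

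The respiratory chain passes electrons from NADH (complex I) or succinate (complex II) over coenzyme Q to complex III, cytochrome c and complex IV, and complex V uses the resulting proton gradient to make ATP. Complexes I, III, IV and V are built from subunits of both genomes, whereas complex II is encoded in the nucleus alone. The circular mitochondrial genome is transcribed from both strands into long precursors that are cut into single mRNAs. In macrophages, alternative activation by IL-4 is known for its reliance on this pathway, and electrons can also run backwards from coenzyme Q into complex I, which then makes superoxide.

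The wildtype BMDMs of all 3 groups had M-CSF, IL-10 and IL-4 in the culture and were treated for 6 days, with DMSO as solvent control, with olaparib, an inhibitor of PARP enzymes, or with MNA, the NAD derivative methyl-nicotinamide. Each group had 4 libraries, numbered 1 to 4, and the labels give neither a dose nor a mouse strain. The libraries held 21146291 to 31446849 counts on genes. Levels are given as CPM, the counts of a gene per 1000000 counts of its library after TMM scaling. A gene is said to be called, or to rise or fall, where edgeR's quasi-likelihood test over the 12 libraries gave an adjusted p (Benjamini-Hochberg, all tested genes) under 0.05. The labels do not say whether the libraries of a group came from separate mice, so the p-values measure the spread between these libraries. On the first principal component of all tested genes, MNA replicate 2 lay with the DMSO libraries (-36.0, against -43.7 to -33.6 for DMSO and 59.9 to 63.4 for the other 3 MNA libraries). Results that rest on this library are therefore given with and without it. The 8 macrophage markers (Adgre1, Csf1r, Cd68, Itgam, Fcgr1, Mertk, Lyz2 and Mrc1) were all detected. They summed to 4469 to 5726 CPM with DMSO, 8913 to 10690 with olaparib and 4104 to 7574 with MNA, and their part in the results below was not tested. Of the 8, Adgre1, Itgam, Mertk and Lyz2 were called higher and Cd68 lower with olaparib, and Csf1r higher and Mrc1 lower with MNA. Neutrophil and precursor markers summed to at most 7.82 CPM with DMSO and 3.85 with olaparib, with Ly6g at 0 in both groups, and ranged from 1.32 to 51.2 with MNA. Lymphoid, stromal and erythroid markers summed to at most 6.93 CPM with DMSO and 6.55 with olaparib and to at most 57.7 with MNA. Cd3e and Pecam1 were called higher with olaparib and Cd3e and Ms4a1 with MNA, and S100a8, S100a9 and Ltf were higher with MNA without MNA replicate 2. In bulk RNA, fewer cells of a type and less RNA per cell cannot be told apart.

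Both genomes contributed more of the RNA after olaparib. The 80 nuclear genes summed to 7657, 7598, 7182 and 7519 CPM in DMSO replicates 1 to 4, and to 8607, 8791, 9201 and 9266 CPM with olaparib. With MNA the same sum was 6488, 7164, 7316 and 7500 CPM. Every olaparib library thus lay above every library of the other groups, and MNA replicate 1 was the lowest of all 12. The 12 mitochondrial genes summed to 13340, 10260, 10850 and 11190 CPM with DMSO and to 17620, 15970, 17110 and 18280 CPM with olaparib. With MNA they stood at 22310, 11230, 16570 and 15880 CPM. Here replicates 1, 3 and 4 of MNA lay above all DMSO libraries, while MNA replicate 2 lay among them.

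**Figure D1:**
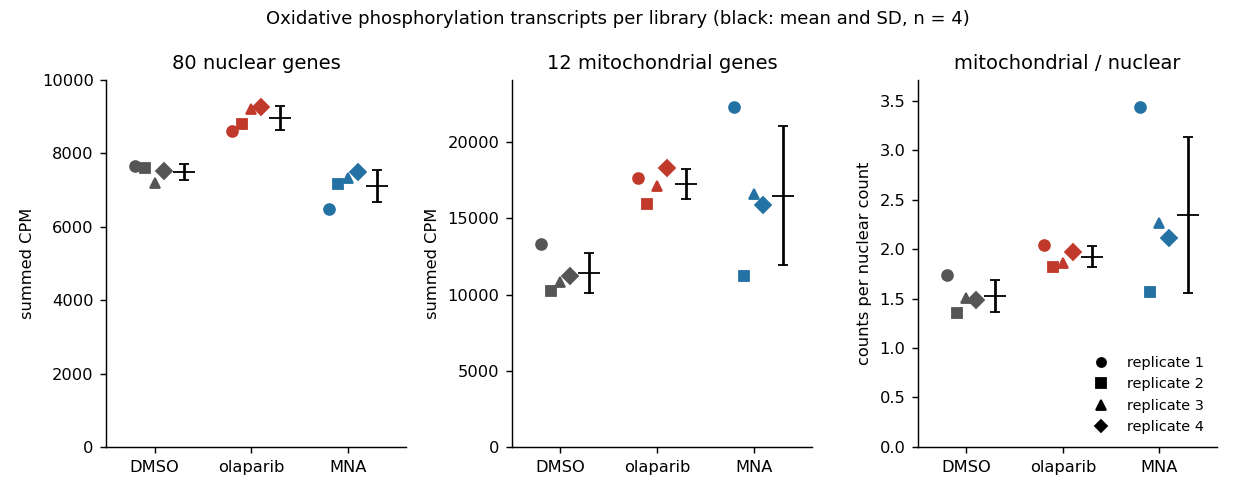
Summed CPM of the 80 nuclear genes (left), of the 12 mitochondrial genes (middle), and mitochondrial counts per nuclear count (right), 1 point per library with the symbol giving the replicate, and mean and SD (n = 4) in black. Nuclear genes were highest in the 4 olaparib libraries (8607 to 9266 CPM), and the mitochondrial genes of MNA ranged from 11230 CPM in replicate 2 to 22310 CPM in replicate 1.

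The balance between the genomes was read as mitochondrial counts per nuclear count of the members. It was 1.35 to 1.74 with DMSO and 1.82 to 2.05 with olaparib, without overlap. With MNA it was 3.44, 1.57, 2.26 and 2.12 in replicates 1 to 4, so that 3 of the 4 libraries exceeded every olaparib library and replicate 2 lay within the DMSO range. Of all counts on genes, the mitochondrial members took 1.04 to 1.35% with DMSO, 1.60 to 1.83% with olaparib and 1.14 to 2.26% with MNA. The nuclear members took 0.696 to 0.773%, 0.874 to 0.925% and 0.656 to 0.761%. Genes with many counts weigh most in these sums and in the balance. mt-Co1 had a mean of 207160 counts per library, and the next mitochondrial gene, mt-Cytb, had 51070. Among the nuclear members, Atp5b and Atp5a1 had the most, with 28034 and 24057. Several mitochondrial genes share sequence with nuclear copies (below), which can take reads from a count of unique reads. The mitochondrial sums and shares may therefore be understated, and the balance was not corrected for this. Since members were chosen with results known, these sums were not tested.

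For olaparib against DMSO, 34 of the 80 nuclear genes were called higher and 1 lower, where 14.3% of all tested genes were called higher and 12.8% lower (27% in either direction). Their median log2 fold change was 0.26, against 0.00 for all tested genes, and 76 of 80 had a positive value. In 51 the 4 olaparib libraries lay above the 4 DMSO libraries, and in 3 below, where 20.7% and 20.3% of all tested genes did so. Of the 12 mitochondrial genes, 10 were called higher and none lower, with a median log2 fold change of 0.60, and 11 had no overlap. Without MNA replicate 2, 46 nuclear genes were called higher and 2 lower, where 22.5% and 21.2% of all genes were called (43.7% in either direction). Leaving out 1 library at a time kept the nuclear median at 0.23 to 0.28, but the nuclear genes called higher fell to 20 or 21 without DMSO replicate 3 or 4, to 20 without olaparib replicate 3 and to 18 without olaparib replicate 4. The mitochondrial calls fell to 2 without DMSO replicate 2, 3 or 4 or olaparib replicate 4, and to 6 without olaparib replicate 1. The shares of all genes called in these fits are not given here. In all 12 such fits, 19 of the 35 nuclear calls stood. With the replicate number as a block, 32 nuclear genes were called higher, 1 lower, and 10 mitochondrial genes higher. Of all genes, 15.4% were called higher and 13.4% lower in that fit.

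MNA gave another picture. Against DMSO it had 3 nuclear genes called higher and 9 lower, where 16.3% and 12.3% of all tested genes were called (28.6% in either direction), and the nuclear median was -0.04. No nuclear gene had all 4 MNA libraries above DMSO and 8 had them below (6.24% and 6.11% of all tested genes). Of the mitochondrial genes 8 were called higher, with a median of 0.54 and with overlap of the groups in all 12. With MNA replicate 2 left out, 8 nuclear genes were called higher and 17 lower, where 27.2% and 26.9% of all genes were called (54.1% in either direction), and the mitochondrial median was 0.68 with 10 called higher. The calls also rest on the other libraries: leaving out MNA replicate 3 or MNA replicate 4 ended every call of a member, with 463 and 503 genes still called in all, and left 3 nuclear genes higher, 12 or 14 nuclear genes lower and 9 or 10 mitochondrial genes higher at an unadjusted p under 0.05. Without DMSO replicate 2 or MNA replicate 1, no mitochondrial gene was called higher, and without DMSO replicate 3 or 4 only 1 was. Nuclear genes called lower were 2 to 4 without any 1 of the DMSO libraries, 2 without MNA replicate 1, 5 without olaparib replicate 2 and 6 without olaparib replicate 1 or 3, and those called higher were 0 or 1 without any 1 of the DMSO libraries or MNA replicate 1 and 2 without any 1 of the olaparib libraries. No call of a member for MNA against DMSO stood in all 12 of these fits.

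Both treatments share the DMSO libraries, so they were also compared directly. Olaparib had 44 of the 80 nuclear genes called higher than MNA and none lower, where 10.9% of all tested genes were called higher and 10.9% lower (21.8% in either direction), and the median log2 difference was 0.32. In 48 nuclear genes all olaparib libraries lay above all MNA libraries, and in none below (11.5% and 9.69% of all tested genes). At an unadjusted p under 0.05, 54 nuclear genes were higher and 1 lower. DESeq2 called 50 higher and 1 lower, where it called 12.7% and 13.4% of all tested genes. None of the 12 mitochondrial genes was called between olaparib and MNA by edgeR, with a median difference of 0.08, and 1 was higher at an unadjusted p under 0.05 and also by DESeq2. When MNA replicate 2 was left out, 49 nuclear genes were called higher with olaparib and 1 lower, where 21.5% and 20.7% of all genes were called (42.2% in either direction), and the mitochondrial median was -0.07. In all 12 fits that left out 1 library, 31 of the 44 nuclear calls stood.

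Complexes differed in how far their nuclear genes moved with olaparib. The median log2 fold change was 0.17 over 37 genes of complex I, 0.35 over 4 of complex II, 0.32 over 8 of complex III, 0.49 over 14 of complex IV and 0.24 over 17 of complex V. Called higher were 10, 4, 4, 8 and 8 of these genes, and the 1 gene called lower belongs to complex I, where 14.3% of all tested genes were called higher and 12.8% lower. With the replicate number as a block, 10, 4, 3, 9 and 6 were called higher with olaparib and 1 of complex I lower. Of all genes, 15.4% and 13.4% were called in that fit. With MNA the medians were -0.09, -0.02, 0.00, 0.14 and -0.04 for complexes I to V, with 1, 0, 0, 2 and 0 genes called higher and 5, 0, 0, 1 and 3 lower, where 16.3% and 12.3% of all tested genes were. Complexes were assigned by symbol. Cyc1, the cytochrome c1 of complex III, has no such symbol and is not in these counts. It was called lower with MNA and is given with the lists below. The 1 complex I gene called higher with MNA is Ndufa4, whose protein is a subunit of complex IV. In the fit without MNA replicate 2, olaparib had 14, 4, 5, 12 and 11 higher and 1, 0, 0, 1 and 0 lower (22.5% and 21.2% of all genes), and MNA had 2, 0, 1, 5 and 0 higher and 6, 1, 2, 2 and 6 lower (27.2% and 26.9% of all genes). At an unadjusted p under 0.05, MNA had 1 gene of complex III and 1 of complex V higher and 1 of complex II lower, and DESeq2 called 1 of complex III higher and 1 of complex II lower. In the direct comparison the medians lay closer together, at 0.32, 0.42, 0.28, 0.37 and 0.35, with 19 of 37, 4 of 4, 4 of 8, 6 of 14 and 11 of 17 genes called higher with olaparib. Differences between complexes were not tested, because the genes of a complex are not replicates. The medians by complex were not adjusted for transcript length, which moved with the olaparib result (below), so they cannot be told apart from differences in length.

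**Figure D2:**
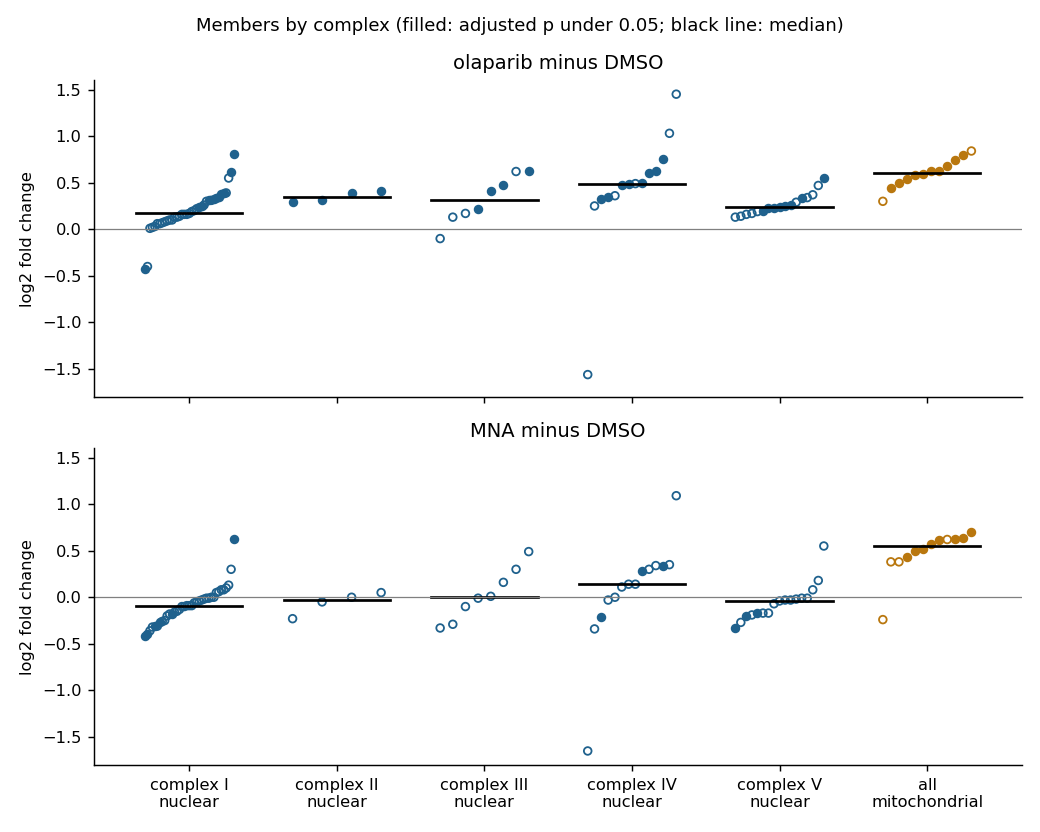
Log2 fold change of each member against DMSO for olaparib (top) and MNA (bottom), by complex for the nuclear genes and together for the mitochondrial genes, with filled points for an adjusted p under 0.05 and black lines for medians. Complexes are assigned by symbol, with Ndufa4 under complex I. The medians with olaparib were 0.17 to 0.49 for the nuclear complexes and 0.60 for the mitochondrial genes, and with MNA -0.09 to 0.14 and 0.54.

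Among the mitochondrial genes, mt-Co1, the catalytic subunit of complex IV (ENSMUSG00000064351, chrM:5328-6872, plus strand, GRCm38), had the highest level per kb of exon of all 92 members, 5069 CPM per kb. Nuclear copies can take reads from a count of unique reads, so levels of genes with such copies may be understated. The ranking by level was not corrected for this. mt-Co1 was at 6708, 5070, 5637 and 5915 CPM with DMSO, at 9178, 8384, 8928 and 9472 with olaparib and at 12020, 5619, 8729 and 8304 with MNA. The olaparib libraries were all above the DMSO libraries, and so were 3 of the 4 MNA libraries. The log2 fold change was 0.62 (standard error 0.18, adjusted p = 0.0268, edgeR) with olaparib and 0.57 (0.18, adjusted p = 0.0382) with MNA, or 0.73 (0.12, adjusted p = 1.37e-04) without MNA replicate 2. Next per kb came mt-Cytb, the cytochrome b of complex III, at 1689 CPM per kb. It rose from 1426 ± 210 (SD, n = 4) to 2197 ± 190 CPM with olaparib (log2 fold change 0.62, adjusted p = 0.0217) and to 2172 ± 581 with MNA (0.61, adjusted p = 0.0276).

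The mt-Nd genes encode the membrane arm of complex I, through which protons are pumped. mt-Nd1, mt-Nd2 and mt-Nd4 rose with both treatments, with log2 fold changes of 0.54, 0.44 and 0.59 for olaparib (adjusted p = 0.0201, 0.0356 and 0.0116) and 0.52, 0.50 and 0.43 for MNA (adjusted p = 0.0280, 0.0262 and 0.0418). mt-Nd5 rose with olaparib (0.50, adjusted p = 0.0402), while MNA gave 0.38 (adjusted p = 0.0927), and 0.49 without MNA replicate 2 (adjusted p = 0.00683). mt-Nd6 (chrM:13552-14070) is the member transcribed in the opposite direction to the other mitochondrial mRNAs. It stood at 367, 315, 311 and 290 CPM with DMSO, 563, 471, 573 and 631 with olaparib and 549, 301, 414 and 400 with MNA. All olaparib libraries exceeded all DMSO libraries, and of the MNA libraries only replicate 1 lay in the olaparib range. The log2 fold change was 0.80 with olaparib (standard error 0.16, adjusted p = 0.00391) and 0.38 with MNA (0.15, adjusted p = 0.0810), and the difference between the treatments was 0.43 (adjusted p = 0.0669). Without MNA replicate 2, the value for MNA was 0.50 (adjusted p = 0.00276). Which strand the deposited counts were taken from was not found, so reads from RNA of the other strand, precursors among them, could not be told apart from those of mt-Nd6. Of the 10 mitochondrial calls for olaparib, those of mt-Nd4 and mt-Nd6 stood in all 12 fits that left out 1 library, with this limit for mt-Nd6.

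**Figure D3:**
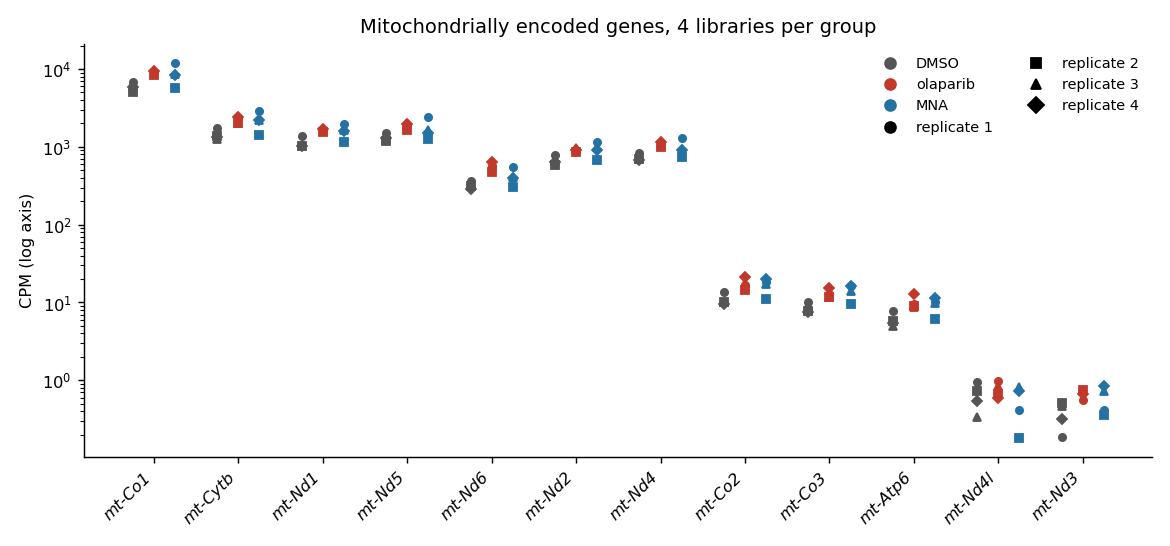
CPM of the 12 mitochondrial genes on a log axis, ordered by level per kb, with 1 point per library, colours for groups and symbols for replicates. The upper 7 genes lay between 290 and 12020 CPM, and the other 5 at 21.0 CPM or less. Levels of genes that share sequence with nuclear copies may be understated.

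The other mitochondrial genes had low counts and shared their sequence with nuclear copies. mt-Co2, mt-Co3, mt-Atp6, mt-Nd3 and mt-Nd4l had 98.0 to 100% of their 50-base words also in transcripts of nuclear copies on chromosome 1, and the share was 62.2% for mt-Nd4 and 51.1% for mt-Co1. Such copies can take reads from a count of unique reads. The low levels of these genes beside mt-Co1 therefore cannot be read as low expression, and how many reads were lost was not tested. The first 120 bases of mt-Co2 and of its copy Gm28661 (chr1:24614885-24615565) from the GENCODE transcripts of GRCm38 are shown because they are the same letter for letter, so that a read from this stretch could come from either.
mt-Co2: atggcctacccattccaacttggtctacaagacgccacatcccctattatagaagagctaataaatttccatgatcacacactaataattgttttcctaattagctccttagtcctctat
Gm28661: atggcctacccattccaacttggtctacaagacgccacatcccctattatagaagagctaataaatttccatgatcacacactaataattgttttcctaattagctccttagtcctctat
Over the 681 bases that could be aligned there were 0 mismatches. mt-Co2, a core subunit of complex IV, had 10.9 ± 1.96 CPM with DMSO, 17.5 ± 2.75 with olaparib and 16.8 ± 3.93 with MNA, against 5833 ± 682 for mt-Co1 with DMSO. Its log2 fold change was 0.68 with olaparib (adjusted p = 0.0191) and 0.62 with MNA (adjusted p = 0.0302). mt-Co3 and mt-Atp6 were called as well, at 0.58 and 0.74 with olaparib (adjusted p = 0.0274 and 0.0198) and 0.70 and 0.64 with MNA (adjusted p = 0.0190 and 0.0368). mt-Nd3 and mt-Nd4l had means of 14.6 and 17.0 counts and were not called, with log2 values of 0.84 and 0.30 for olaparib. Over the 5 mitochondrial genes under a limit of 10% shared words (mt-Nd1, mt-Nd2, mt-Nd5, mt-Nd6 and mt-Cytb), 5 were called higher with olaparib and 3 with MNA, with medians of 0.54 and 0.50.

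In complex I, Ndufb5, an accessory subunit of the membrane arm (chr3:32736990-32751566), had the smallest p of all nuclear members for olaparib against DMSO. It was at 33.3, 31.4, 32.6 and 32.7 CPM with DMSO, 46.1, 50.7, 49.9 and 51.9 with olaparib and 31.2, 30.8, 33.0 and 34.4 with MNA. The olaparib libraries stood apart from both other groups, which overlapped. The log2 fold change was 0.61 with olaparib (standard error 0.06, adjusted p = 5.45e-05) and -0.01 with MNA (0.06, adjusted p = 0.935), and the direct difference was 0.62 (adjusted p = 4.45e-05). Of its 50-base words 11.2% lie in the neighbouring gene Mrpl47. Ndufs1, the large iron-sulfur subunit of the NADH arm, rose by 0.34 with olaparib (adjusted p = 0.00166) and was at -0.01 with MNA. Further core subunits that rose with olaparib were Ndufs3 (0.32), Ndufs7 (0.24) and Ndufv2 (0.25), and further accessory ones Ndufa3 (0.81), Ndufa8 (0.31), Ndufa13 (0.38), Ndufb9 (0.35) and Ndufc2 (0.39).

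A core subunit of complex I fell with both treatments. Ndufs8, which carries iron-sulfur clusters, was at 82.6, 91.2, 96.1 and 93.2 CPM with DMSO, 64.8, 67.1, 68.3 and 68.9 with olaparib and 64.3, 84.1, 62.8 and 65.9 with MNA. It was below DMSO in all olaparib libraries and in 3 MNA libraries, with MNA replicate 2 inside the DMSO range. The log2 fold change was -0.43 with olaparib (standard error 0.09, adjusted p = 0.00502) and -0.39 with MNA (0.09, adjusted p = 0.0160), or -0.50 without MNA replicate 2 (adjusted p = 5.52e-06). Ndufv1, which binds NADH and the flavin, was at 80.2, 84.6, 80.9 and 84.8 CPM with DMSO and 82.4, 82.6, 84.2 and 89.2 with olaparib, but at 53.1, 76.3, 58.9 and 58.6 with MNA. All 4 MNA libraries were below the DMSO and olaparib libraries. Its log2 fold change was -0.42 with MNA (adjusted p = 0.0154) and 0.03 with olaparib (adjusted p = 0.807), and it was 0.45 higher with olaparib than with MNA (adjusted p = 0.00538). Ndufa10, Ndufa11 and Ndufb4 also fell with MNA, by 0.18, 0.27 and 0.31 on the log2 scale (adjusted p = 0.0425, 0.0321 and 0.0325).

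Ndufa4 keeps the symbol of complex I, though the protein is a subunit of complex IV. Its values were 60.1, 51.9, 44.2 and 48.3 CPM with DMSO, 64.3, 56.4, 55.8 and 47.6 with olaparib and 78.4, 51.1, 96.0 and 91.7 with MNA. It was highest in 3 MNA libraries, and the fourth, replicate 2, lay with DMSO. Its log2 fold change was 0.63 with MNA (standard error 0.17, adjusted p = 0.0237) and 0.13 with olaparib (adjusted p = 0.585). Without MNA replicate 2 it was 0.80 with MNA (adjusted p = 3.51e-05), and -0.66 for olaparib against MNA (adjusted p = 2.80e-04), so that Ndufa4 was then the 1 nuclear gene called lower with olaparib.

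Complex II, succinate dehydrogenase, was the nuclear class in which every gene was called with olaparib. Sdha, which oxidizes succinate, was at 294, 279, 281 and 288 CPM with DMSO, 353, 374, 404 and 386 with olaparib and 282, 277, 298 and 285 with MNA. The olaparib libraries did not overlap with the others. Its log2 fold change was 0.41 with olaparib (standard error 0.06, adjusted p = 7.01e-04), 0.00 with MNA (0.06, adjusted p = 0.997) and 0.41 between the treatments (adjusted p = 5.41e-04). The iron-sulfur subunit Sdhb rose by 0.29 with olaparib (adjusted p = 0.0283), and the membrane anchors Sdhc and Sdhd rose by 0.31 and 0.39 (adjusted p = 0.00371 and 0.00249). With MNA, Sdhb stood at 92.8, 121, 94.8 and 96.7 CPM against 114 to 130 with DMSO. Its 3 low libraries were all MNA libraries other than replicate 2. The log2 value was -0.23 (adjusted p = 0.0582), and -0.33 without MNA replicate 2 (adjusted p = 6.88e-04).

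In complex III, the Rieske iron-sulfur protein Uqcrfs1 and the core protein Uqcrc2 rose with olaparib, by 0.41 (adjusted p = 0.00269) and 0.22 (adjusted p = 0.0203), and were at 0.01 and -0.01 with MNA (adjusted p = 0.917 and 0.931). Uqcrh, the hinge protein at the cytochrome c1 side, was at 47.6, 59.1, 54.5 and 54.8 CPM with DMSO, 72.6, 80.3, 94.6 and 84.3 with olaparib and 63.6, 48.7, 92.6 and 97.5 with MNA. All olaparib libraries and 3 MNA libraries were above DMSO. The log2 fold change was 0.62 with olaparib (standard error 0.18, adjusted p = 0.0271) and 0.49 with MNA (0.18, adjusted p = 0.0623), or 0.64 without MNA replicate 2 (adjusted p = 7.16e-04). Uqcrb, which binds near coenzyme Q, was at 0.17 with olaparib (adjusted p = 0.451) and -0.33 with MNA (adjusted p = 0.128). It was at 13.4 CPM in MNA replicate 1 and at 23.6 to 31.7 CPM in the other 11 libraries. Of its words 25.5% lie in other genes.

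Complex IV had log2 fold changes from -1.56 to 1.45 with olaparib and from -1.65 to 1.09 with MNA. Cox8a, the smallest of its subunits and the nuclear member with the highest level per kb (338 CPM per kb), was at 184, 183, 159 and 164 CPM with DMSO, 247, 263, 279 and 272 with olaparib and 173, 162, 210 and 213 with MNA. The olaparib libraries were above all others. Its log2 fold change was 0.62 with olaparib (standard error 0.09, adjusted p = 0.00109) and 0.14 with MNA (0.09, adjusted p = 0.275). Cox6b1, at the dimer interface, rose with olaparib by 0.60 (adjusted p = 0.00173) and with MNA by 0.28 (adjusted p = 0.0491), and Cox7a2 by 0.50 (adjusted p = 0.00600) and 0.34 (adjusted p = 0.0352). Cox4i1, an early subunit in assembly, moved in opposite directions. It was at 222, 218, 205 and 208 CPM with DMSO, 267, 264, 270 and 284 with olaparib and 161, 194, 188 and 195 with MNA, without overlap of any of the 3 groups. This was a log2 fold change of 0.35 with olaparib (standard error 0.07, adjusted p = 0.00387), -0.21 with MNA (0.07, adjusted p = 0.0401) and 0.56 between them (adjusted p = 2.17e-04). Cox6a1 was at 0.25 with olaparib (adjusted p = 0.0886) and 0.14 with MNA (adjusted p = 0.303).

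Several subunits of complex IV exist as tissue isoforms, and Cox6a2, the isoform known from heart and skeletal muscle (chr7:128205435-128206387, minus strand), differed widely between libraries. It was at 17.1, 17.6, 19.8 and 17.6 CPM with DMSO and at 6.92, 5.62, 5.17 and 6.68 with olaparib. With MNA it was at 0.247, 21.2, 0.694 and 0.643 CPM, that is 6, 592, 18 and 16 counts. Olaparib was below DMSO in every library, and MNA below olaparib in all libraries but replicate 2, which was the highest of the 12. With all libraries the log2 values were -1.56 for olaparib (standard error 0.93, adjusted p = 0.224) and -1.65 for MNA (0.93, adjusted p = 0.186). Without MNA replicate 2 they were -1.56 (adjusted p = 1.74e-06) and -5.07 (adjusted p = 1.10e-09). The gene lies inside Itgad on the other strand, 10.3% of its exon bases overlap exons of other genes there, and Itgad was at 94.9 to 133 CPM with DMSO, 167 to 198 with olaparib and 98.4 to 161 with MNA. The muscle isoform Cox7a1 was at most 1.77 CPM in any library, with log2 values of 1.03 for olaparib (adjusted p = 0.0838) and 0.34 for MNA (adjusted p = 0.564). The isoforms Cox4i2, Cox7b2, Cox8b and Cox8c had a mean under 10 counts, as did Cox6c2, which is annotated as a processed pseudogene.

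**Figure D4:**
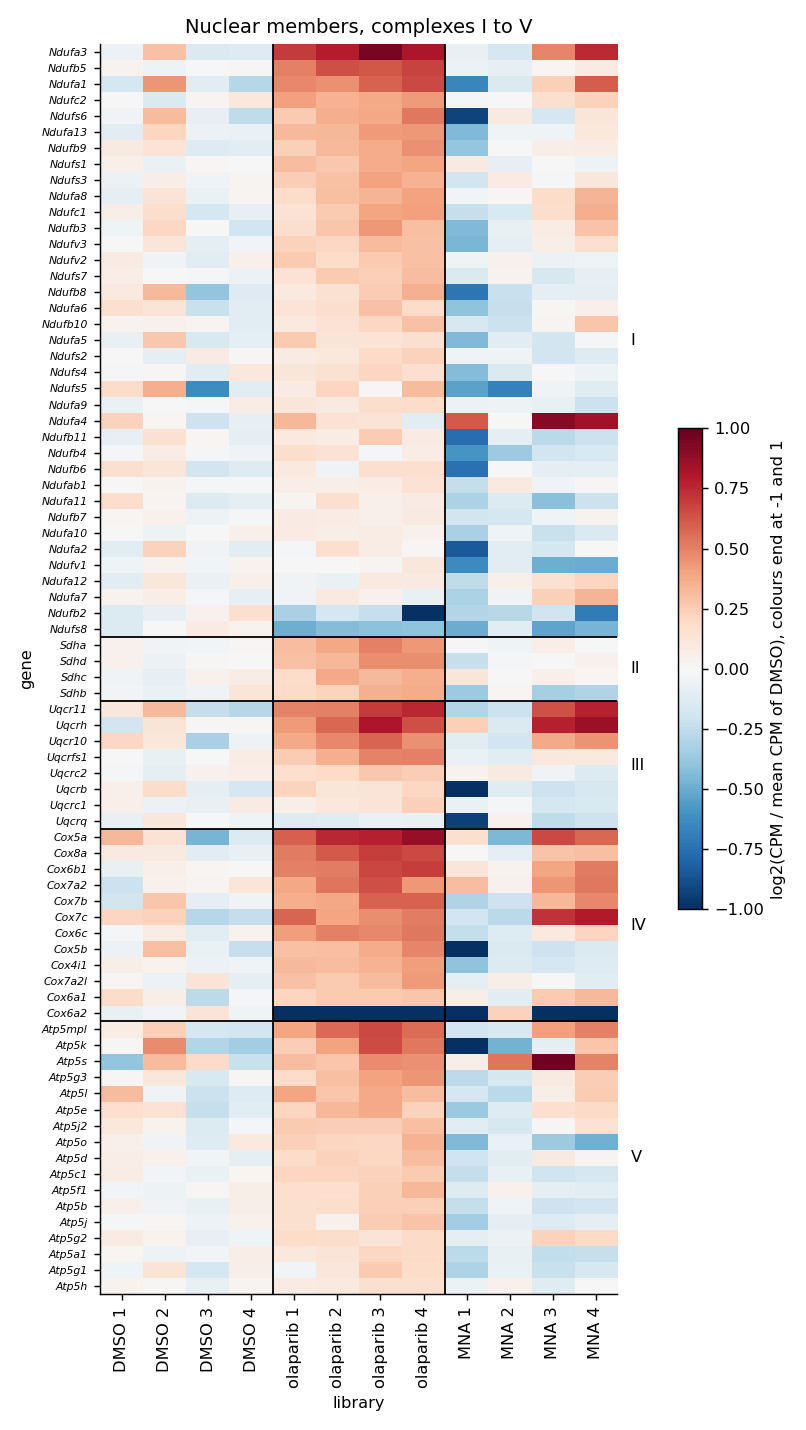
Log2 ratio of CPM to the mean of the 4 DMSO libraries for the nuclear members with a mean of 50 or more counts, 1 row per gene sorted by its olaparib fold change within complexes I to V, 1 column per library. The olaparib columns are red for most genes, the column of MNA replicate 1 has the lowest summed level (6488 CPM), and Cox6a2, Ndufb2 and Ndufs8 are blue in the olaparib columns, with colours ending at -1 and 1.

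Complex V is ATP synthase, with a catalytic head, a rotor and a stator. Atp5b, the catalytic beta subunit, was at 1067, 1006, 979 and 1078 CPM with DMSO, 1153, 1164, 1215 and 1218 with olaparib and 873, 1006, 892 and 903 with MNA. Olaparib was above DMSO in every library, and 3 MNA libraries were below it. Atp5b had a log2 fold change of 0.20 with olaparib (standard error 0.07, adjusted p = 0.0433) and -0.17 with MNA (0.07, adjusted p = 0.0738), or -0.22 without MNA replicate 2 (adjusted p = 0.00383). With the replicate number as a block, the value for olaparib had an adjusted p of 0.0598. The alpha subunit Atp5a1 fell with MNA (-0.20, adjusted p = 0.0394) and was at 0.16 with olaparib (adjusted p = 0.0883). Atp5c1, the central shaft, rose with olaparib (0.23, adjusted p = 0.00934) and fell with MNA (-0.17, adjusted p = 0.0377), and it was 0.40 higher with olaparib than with MNA (adjusted p = 4.17e-04). Atp5f1 of the peripheral stalk rose by 0.23 with olaparib (adjusted p = 0.0158) and was at -0.07 with MNA (adjusted p = 0.369). Atp5o, which joins the stalk to the catalytic head, was at 77.2, 72.5, 68.2 and 79.6 CPM with DMSO, 87.8, 86.5, 85.7 and 94.8 with olaparib and 54.8, 70.9, 57.7 and 53.4 with MNA. The direction was thus opposite for the 2 treatments, with MNA replicate 2 again within the DMSO range. Its log2 fold change was 0.25 with olaparib (adjusted p = 0.0495) and -0.33 with MNA (adjusted p = 0.0232), and with the replicate block the adjusted p for olaparib was 0.0615. Of its words 41.6% lie in other genes, and 35.6% of its exon bases are overlapped on the other strand. At the low end, Atp5s, a coupling factor that is not a stable subunit, had 1.85 to 2.71 CPM as group means and was not called.

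Transcript length moved with the olaparib result. For other tested protein-coding genes, the median log2 fold change was 0.24 for longest transcripts up to 750 bases (154 genes), 0.12 for 751 to 1000 bases (263 genes) and -0.07 over 4000 bases (4559 genes), and 20 of the 80 nuclear members fall in the shortest class. In each of 6 length classes the median of the nuclear members lay above that of the other genes, at 0.47, 0.25, 0.30, 0.22, 0.33 and 0.11 against 0.24, 0.12, 0.07, 0.05, 0.01 and -0.07. Less the median of its class, the nuclear median was 0.17 with olaparib, -0.05 with MNA and 0.26 between them. For MNA, the medians of other genes were 0.08, 0.02, -0.04, 0.03, 0.02 and -0.02, and those of the members 0.12, -0.13, -0.04, -0.10, -0.01 and -0.14.

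**Figure D5:**
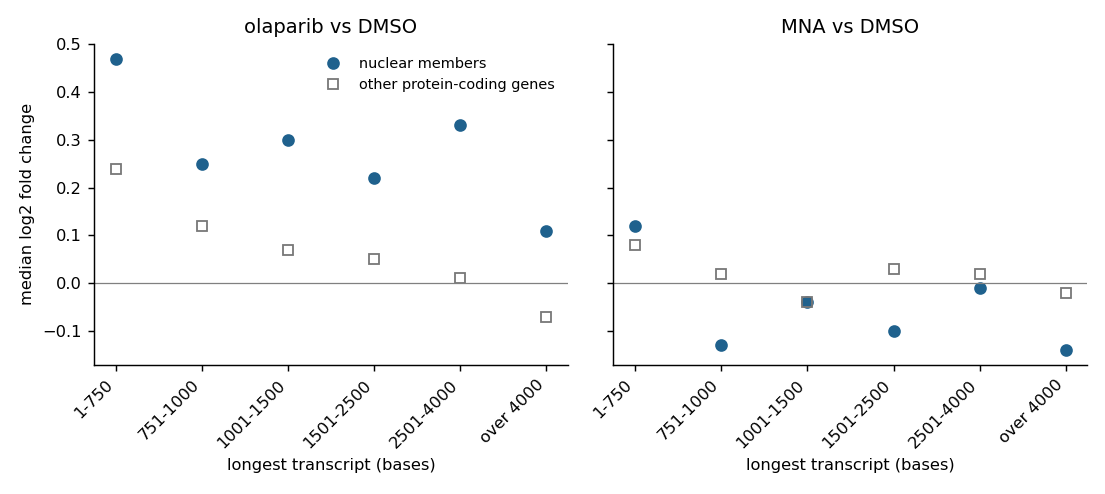
Median log2 fold change against DMSO by length class of the longest transcript, for nuclear members (filled circles, 4 to 20 genes per class) and for the other tested protein-coding genes (open squares, 154 to 4559 genes), for olaparib (left) and MNA (right). With olaparib both medians were highest in the shortest class, at 0.47 and 0.24.

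The factors that build the complexes are described by list, beside shares over all tested genes of 14.3% higher and 12.8% lower with olaparib and 16.3% and 12.3% with MNA. Without MNA replicate 2 these shares were 22.5% and 21.2%, and 27.2% and 26.9%. Of 16 tested assembly factors of complex I, olaparib had 1 called higher and none lower (median log2 fold change 0.01), and MNA had 2 higher and 2 lower (median -0.06). With MNA replicate 2 left out, olaparib had 2 higher and 1 lower, and MNA 3 higher and 7 lower (median -0.15). Foxred1 rose with olaparib (0.34, adjusted p = 0.0238) and Ndufaf7 with MNA (0.64, adjusted p = 0.0160). For complexes II and III, 4 of 9 assembly factors were called higher with olaparib and 2 with MNA, with none lower. When MNA replicate 2 was left out, olaparib had 4 higher and 1 lower (Sdhaf3), and MNA 3 higher and 2 lower (Sdhaf3 and Uqcc1). Among them, Uqcc3 rose by 0.69 with olaparib (adjusted p = 0.00486) and Sdhaf2 by 0.32 with MNA (adjusted p = 0.0247). Complex IV had 20 tested assembly factors, of which 2 were higher and 2 lower with olaparib and 4 higher and 3 lower with MNA, or 5 and 2, and 5 and 4, without MNA replicate 2. Surf1 rose with olaparib (0.32, adjusted p = 0.00634), whereas Cox10, which acts in making the heme of this complex, fell with both, by 0.45 (adjusted p = 0.0212) and 0.53 (adjusted p = 0.0170). Of 5 genes for complex V assembly and its inhibitor, none was called with olaparib by edgeR (1 higher at an unadjusted p under 0.05 and by DESeq2), and 1, Fmc1, was lower with MNA (-0.54, adjusted p = 0.0236). The inhibitor Atpif1 had a log2 value of 0.60 with olaparib (adjusted p = 0.0502). In the fit without MNA replicate 2, Atpif1 and Atpaf1 were called higher with olaparib.

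Regulators of these genes were mostly lower with olaparib. Of 9 tested regulators of nuclear oxidative phosphorylation genes, 6 were called lower and 1 higher with olaparib (median -0.30), and 4 lower and none higher with MNA (median -0.24), where 12.8% and 12.3% of all tested genes were called lower. Without MNA replicate 2, olaparib had 6 lower and 2 higher and MNA 6 lower, where 21.2% and 26.9% of all genes were called lower. Esrra, a nuclear receptor that activates respiratory genes, rose with olaparib from 48.8 ± 4.29 to 62.4 ± 4.14 CPM (0.36, adjusted p = 0.0117). Lower with olaparib were the coactivators Pprc1 (-0.59, adjusted p = 0.00456) and Ppargc1a, Nrf1 (-0.39, adjusted p = 0.0132), Gabpa, Gabpb1 and Yy1 (-0.30, adjusted p = 0.00847). Ppargc1a, though, was at most 1.49 CPM in any library. Ppargc1b, a coactivator of Esrra, fell with MNA (-0.57, adjusted p = 0.0220) and was at 0.32 with olaparib (adjusted p = 0.131). Of 15 tested genes for the upkeep and transcription of mitochondrial DNA, olaparib had 1 called higher and 2 lower and MNA 1 lower, or 1 and 4 with olaparib and 2 and 6 with MNA without MNA replicate 2. Tfam, which packs mitochondrial DNA and starts its transcription, was at 28.8, 28.3, 30.9 and 29.1 CPM with DMSO, 21.2, 20.4, 19.9 and 21.4 with olaparib and 18.7, 28.5, 20.3 and 17.2 with MNA. It was lower in all olaparib libraries and in 3 MNA libraries (log2 fold change -0.50, adjusted p = 0.0145, and -0.47, adjusted p = 0.0240), while the mitochondrial mRNAs were higher in the same libraries. Of 15 genes for mitochondrial RNA processing, 1 was higher and 2 lower with olaparib and 1 higher and 4 lower with MNA, or 1 and 4, and 1 and 9, without MNA replicate 2. Fastkd2 fell with olaparib (-0.37, adjusted p = 0.0243) and Pnpt1 with MNA (-0.26, adjusted p = 0.0215).

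Motifs for 4 of these factors were searched in the promoters of the nuclear members, from 250 bases before to 50 bases after the start, in the RefSeq windows of GRCm38.p6. A window was found for 67 of the 80 members. The NRF1 motif GCGCATGC, on either strand, was present in 10 of 67 members (14.9%) and in 3.05% of all genes and 6.06% of tested genes with a window. AAGATGGC, a YY1 motif, was also present in 10 of 67 (14.9%), against 3.19% and 5.52%. For the ETS motif CCGGAAGT the share was 7.46% against 4.31% and 9.44%, and for the ESRRA motif CAAGGTCA 5.97% against 1.76% and 1.30%. Of the members with the NRF1, YY1, ETS and ESRRA motifs, 2 of 10, 4 of 10, 3 of 5 and 2 of 4 were called higher with olaparib, as were 42.5% of all 80 nuclear members. Shown here are the 2 with an NRF1 match and 2 of the 4 with a YY1 match, with the matched letters in capitals (GCATGCGC is the NRF1 motif read on the other strand). A match describes these letters only.
Ndufa8 (chr2:36049289-36049588, minus strand): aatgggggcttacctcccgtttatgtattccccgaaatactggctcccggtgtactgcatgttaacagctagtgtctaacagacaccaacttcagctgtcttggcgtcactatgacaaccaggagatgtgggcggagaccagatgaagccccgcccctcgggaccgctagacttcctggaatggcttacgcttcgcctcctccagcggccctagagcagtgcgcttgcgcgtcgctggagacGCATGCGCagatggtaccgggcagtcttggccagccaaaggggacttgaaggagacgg
Sdhb (chr4:140961021-140961320, plus strand): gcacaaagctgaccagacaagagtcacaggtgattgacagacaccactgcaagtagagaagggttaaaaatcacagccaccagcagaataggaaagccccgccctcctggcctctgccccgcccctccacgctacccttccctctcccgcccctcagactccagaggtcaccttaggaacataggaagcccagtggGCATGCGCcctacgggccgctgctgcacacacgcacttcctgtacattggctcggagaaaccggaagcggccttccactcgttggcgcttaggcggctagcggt
Ndufa3 (chr7:3617123-3617422, plus strand): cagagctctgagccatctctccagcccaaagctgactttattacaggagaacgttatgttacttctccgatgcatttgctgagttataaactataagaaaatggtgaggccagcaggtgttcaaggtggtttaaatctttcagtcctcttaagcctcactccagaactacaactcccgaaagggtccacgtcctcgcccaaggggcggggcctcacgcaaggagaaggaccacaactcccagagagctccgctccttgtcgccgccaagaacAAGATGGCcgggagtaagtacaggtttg
Ndufs7 (chr10:80249199-80249498, plus strand): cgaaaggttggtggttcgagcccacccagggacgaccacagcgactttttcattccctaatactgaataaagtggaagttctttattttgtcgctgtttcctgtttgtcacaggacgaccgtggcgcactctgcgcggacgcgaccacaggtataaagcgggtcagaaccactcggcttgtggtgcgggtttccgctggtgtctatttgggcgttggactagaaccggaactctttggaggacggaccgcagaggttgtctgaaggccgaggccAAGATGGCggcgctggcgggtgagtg
The NRF1 match began 8 bases before the start in Ndufa8 and 54 before it in Sdhb, and the YY1 match 22 and 24 bases after it in Ndufa3 and Ndufs7.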

How the data were processed

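The authors deposited raw counts per Ensembl gene for 12 libraries, made from stranded mRNA libraries read once over 150 bases and, per the processing notes and the study's methods, counted with STAR 2.5.2b on GRCm38.p5. Which strand column was taken is not given in the sources used here. The files list 35275 genes, of which 34490 were named from GENCODE annotation. Counts were tested as deposited with edgeR 4.0.16 (R 4.3.3): filterByExpr (minimum 10 counts, total 15), TMM, glmQLFit and glmQLFTest on all 12 libraries, Benjamini-Hochberg over 12849 genes. The test was run on simulated counts with log2 changes of 1 or 2 in either direction. Most changes reported here are smaller, so that run does not cover them. Members, gene lists and tests were chosen with earlier results of these data known. Named genes are the mitochondrial members, complex II, the 2 nuclear genes with the smallest p per contrast in each other complex, the 5 highest per kb, isoforms of complex IV, and 1 gene per list and contrast. Others (among them Ndufa3, Ndufa4, Cox6b2, Atp5s and further called genes) were named after their values were seen. Same-numbered olaparib and DMSO libraries deviated together from their group means over all tested genes (r = 0.227, 0.172, 0.225 and 0.408). A fit with the number as a block, which allows for such pairing, is therefore given beside the main fit. Libraries with different numbers were not compared in this way, and no label ties a number to a mouse. The main fit had no block, so its p-values do not allow for pairing. Shared words are 50-base stretches found in transcripts of other genes. Mitochondrial ribosomal RNA and Coa1 were not analysed here. Alternatives were DESeq2 1.42.0, its size factors, scaling on nuclear genes, no filter, a replicate block, the compared groups alone, each library left out, a minimum mean of 50 counts, and, chosen after seeing the data, a limit of 10% shared words and subtraction of length classes. Precision covers counting and spread between libraries only, at 21146291 to 31446849 counts per library.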

Additional observations from a re-analysis of the deposited data

Results flagged for a closer look

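Among the 36 members named by rule and the summed levels, 114 groups of 4 libraries were tested for a library far from the other 3, and 10 were past the limit, where chance gives about 1 in 20. Of these, 4 were MNA replicate 2: Atp5a1 at 857.8 CPM against 751 to 769 CPM in the other MNA libraries, Cox6a2 at 21.19 CPM against 0.247 to 0.694, Ndufs8 at 84.08 against 62.8 to 65.9, and Sdhb at 120.5 against 92.8 to 96.7. In each of these 4 the library lay near the DMSO libraries. MNA replicate 1 was flagged for Uqcrb, at 13.36 CPM against 23.6 to 25.1 in the other MNA libraries. DMSO replicate 1 stood above the other DMSO libraries for 3 mitochondrial genes, mt-Co2 at 13.82 CPM, mt-Nd1 at 1386 CPM and mt-Nd4 at 831.6 CPM. With olaparib, replicate 4 was the highest for mt-Atp6, at 12.78 CPM, and replicate 2 the lowest for mt-Nd5, at 1647 CPM. What set these libraries apart was not tested.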

How the results depend on the processing

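Direction was the same under every alternative for each named gene past the threshold, with 0 reversals. Of the values for single genes, 1768 were on the same side of the threshold as reported, 242 lost a call and 40 gained one. Over the fits that left out 1 library, olaparib against DMSO had 18 to 46 nuclear genes called higher, 1 or 2 lower and 2 to 10 mitochondrial genes higher. Of all genes, 14.3% were called higher in the main fit and 22.5% without MNA replicate 2. For most of the other fits this share is not given here. A count alone cannot tell a change in the members from a change over all genes. MNA against DMSO had 0 to 8 nuclear genes higher, 0 to 17 lower and 0 to 10 mitochondrial genes higher, and olaparib against MNA 0 or 1 nuclear gene lower and 0 or 1 mitochondrial gene higher. With the 2 groups compared alone, olaparib had 56 nuclear genes higher and 2 lower, and the share of all genes called there is not given here. For MNA, edgeR called 0 of all genes in such a fit, hence 0 nuclear genes higher, 0 lower and 0 mitochondrial genes higher (4, 11 and 9 at an unadjusted p under 0.05). The replicate block gave 3 nuclear genes higher, 7 lower and 9 mitochondrial genes higher for MNA against DMSO, 1 mitochondrial gene higher with olaparib than with MNA, and with MNA replicate 2 left out as well it gave 2 nuclear genes lower for olaparib, 12 higher and 18 lower for MNA, and 1 nuclear gene lower and 1 mitochondrial gene higher for olaparib against MNA. The same-number correlations were 0.242, 0.114, -0.009 and 0.277 for MNA with DMSO and 0.07, 0.137, 0.131 and 0.392 for olaparib with MNA. They cannot decide whether those numbers are pairs. The MNA group mean includes replicate 2, which lay apart from the other MNA libraries, and libraries with different numbers were not compared. DESeq2 had 1 nuclear gene lower and 1 mitochondrial gene higher with olaparib than with MNA. Without a filter on counts, 4 nuclear genes were lower with MNA. Among the 5 mitochondrial genes under the limit of shared words, 5 were higher with olaparib and 3 with MNA, fewer because fewer genes remained. For the other changes the cause was not tested.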

Other observations

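The steps on either side of the complexes and the membrane carriers were looked at as lists as well. The first list also holds Cyc1, a subunit of complex III that the symbols did not take in. Sqor, which feeds electrons from sulfide into coenzyme Q, rose from 35.7 ± 1.69 (SD, n = 4) to 57.0 ± 3.31 CPM with olaparib (log2 fold change 0.67, adjusted p = 9.04e-04, edgeR) and to 44.2 ± 6.62 with MNA (0.31, adjusted p = 0.0382). It was the 1 of 8 genes for cytochrome c, cytochrome c1 and Q-linked dehydrogenases called with olaparib, while MNA had Cyc1 and Etfa lower (-0.25 and -0.27, adjusted p = 0.0395 and 0.0309). Of 13 genes for coenzyme Q synthesis, Coq8a rose with both treatments (0.85 and 0.87, adjusted p = 0.0226 and 0.0247), and MNA had 3 lower, Coq6, Coq7 and Coq10b (-0.64, -0.89 and -0.29). Of 16 channels, carriers and import proteins, 4 were higher with olaparib, among them the ADP/ATP carriers Slc25a4 (0.53, adjusted p = 0.00385) and Slc25a5 (0.39, adjusted p = 0.00168), and with MNA 1 was higher and 3 were lower, among them Timm23 (-0.40, adjusted p = 0.0175). With MNA replicate 2 left out, MNA had 2 higher and 4 lower in the first of these lists, 2 higher and 6 lower for coenzyme Q synthesis and 3 higher and 7 lower for the carriers, and olaparib had 3, 2 and 6 higher and 0, 0 and 2 lower. Of all tested genes, 14.3% were called higher and 12.8% lower with olaparib and 16.3% and 12.3% with MNA, and without MNA replicate 2 these shares were 22.5%, 21.2%, 27.2% and 26.9%.

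Of 10 tested genes for alternative chain proteins and mitochondrial redox, 5 were higher with olaparib and 3 with MNA, with none lower. When MNA replicate 2 was left out, MNA had 4 higher and 4 lower, the latter AA467197, Higd1a, Sod2 and Prdx3. Ucp2, a carrier of the uncoupling protein family, was at 863 ± 56.0 CPM with DMSO, 1446 ± 101 with olaparib and 1446 ± 426 with MNA (0.75 in each case, adjusted p = 0.0129 and 0.0194). Acod1, which makes itaconate, an inhibitor of succinate dehydrogenase, rose from 11.7 ± 2.03 to 30.1 ± 7.34 and 28.8 ± 11.99 CPM (1.36 and 1.29, adjusted p = 0.00730 and 0.0167). AA467197, a relative of Ndufa4, went from 19.5 ± 2.44 to 48.6 ± 15.7 CPM with olaparib (1.32, adjusted p = 0.00597) and stood at 11.3 ± 4.51 with MNA (-0.78, adjusted p = 0.0549), a difference of 2.10 between the treatments (adjusted p = 4.73e-04).

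The nuclear copies on chromosome 1 were counted as genes of their own, and over identical stretches a read could come from either gene of a pair. Gm28661 (mt-Co2) was at 13.0 ± 2.90 CPM with DMSO, 22.0 ± 3.48 with olaparib (0.76, adjusted p = 0.0313) and 21.4 ± 6.67 with MNA (0.72, adjusted p = 0.0392). Gm28437 (mt-Co3) and Gm10925 (mt-Atp6) had log2 fold changes of 0.54 and 0.59 with olaparib (adjusted p = 0.0276 and 0.0206) and 0.64 and 0.61 with MNA (adjusted p = 0.0202 and 0.0232). Gm29216 differs from mt-Co1 at 1 of 483 aligned bases (A1066T, counted from the first base of mt-Co1, which has A) and rose with olaparib by 0.82 (adjusted p = 0.0144). It stood at 8.87 ± 1.51 CPM with DMSO, against 5833 ± 682 for mt-Co1. Gm28439 (mt-Nd4) stood at 4.85 ± 0.873 CPM with DMSO and was not called, with 0.42 for olaparib (adjusted p = 0.129) and 0.40 for MNA (adjusted p = 0.139), whereas mt-Nd4 was called for both. Cox6b2, an isoform known from testis, had a mean of 20.5 counts and log2 values of 1.45 with olaparib (adjusted p = 0.0580) and 1.09 with MNA.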
